A study of Mus musculus with 12 samples.

Results

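Immediate early genes are the genes a cell transcribes within minutes of a stimulus, before any new protein has to be made. The set described here holds 10 of them: Fos, Fosb, Junb, Egr1, Egr2, Arc, Npas4, Nr4a1, Ier2 and Dusp1. They were chosen by name, from the 55401 gene identifiers in the count tables. No rule on measured values was used, but earlier results of these data were known. All 10 matched an identifier, and 9 of them were among the 19378 genes that passed the low-count filter and were tested; Egr2 did not pass. The data are RNA sequencing of the cerebellum of 12 mice, 1 library per mouse, in 3 groups of 4. Het mice carry 1 Atxn1 allele with an expanded tract of glutamine codons and 1 normal allele (Atxn1 154Q/2Q), and model spinocerebellar ataxia type 1 by knock-in, so that every cell type that expresses Atxn1 carries the expansion. WT DMSO mice (animals 413, 425, 426 and 431) are wild type and Het DMSO mice (409, 411, 420 and 429) are knock-in, and both were injected with dimethyl sulfoxide (DMSO) alone. Het Hit 2 mice (410, 421, 422 and 430) are knock-in and were injected with a compound known by the code name Hit 2, at 25 mg/ml in DMSO. Per the labels' protocols, all 12 mice had intraperitoneal injections on 5 days from 18 weeks of age, 2 days of rest and 5 more days of injection, with DMSO below 4 ml/kg. Injections took place between 8 and 9 am. On the last day, at 20 weeks, tissue was taken after 3 pm under urethane anaesthesia (1.2 to 1.5 g/kg), after the chest was opened and the vessels were flushed with saline. DMSO, repeated injection, anaesthesia and perfusion were therefore common to all groups, and no undisturbed mice were among the 12.

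In neurons, calcium entry and growth factor signalling activate kinases of the MAP kinase and calcium/calmodulin families. These act on factors already bound to the promoters of immediate early genes: CREB at cyclic AMP response elements, and serum response factor with its partners at CArG boxes. The messages are short-lived, and several carry AU-rich elements in the 3′ UTR that speed their decay. In the cerebellum, Fos and its relatives are widely used as a read of recent neuronal activity, of stress and of handling.

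Upstream sequence was available for 7 of the 10 genes, from RefSeq promoter windows on the mouse genome GRCm38.p6 that run from 250 bases before to 50 bases after a transcription start. Arc, Ier2 and Egr1 had no window. The windows were searched on both strands for the full cyclic AMP response element TGACGTCA, for its core TGACG, which overlaps the full element, and for the serum response factor CArG box. The 250 bases before the start are printed for Fos, Nr4a1 and Dusp1, whose levels moved together over the 12 mice, and for Fosb and Npas4, whose levels had r from -0.22 to 0.19 with theirs over the same 12. Without libraries 409 and 411, Fos and Npas4 had r = 0.73, so that this contrast rests on those libraries for Npas4. They read 5′ to 3′ on the strand of the gene, and capitals mark matches to the full element or to its core on either strand.
Fos, chr12:85473640-85473889, strand +: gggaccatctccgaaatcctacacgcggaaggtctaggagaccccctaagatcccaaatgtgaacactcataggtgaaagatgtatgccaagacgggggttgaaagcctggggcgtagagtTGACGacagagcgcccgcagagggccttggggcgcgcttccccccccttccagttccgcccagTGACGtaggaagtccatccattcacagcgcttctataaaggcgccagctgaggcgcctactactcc
Nr4a1, chr15:101266596-101266845, strand +: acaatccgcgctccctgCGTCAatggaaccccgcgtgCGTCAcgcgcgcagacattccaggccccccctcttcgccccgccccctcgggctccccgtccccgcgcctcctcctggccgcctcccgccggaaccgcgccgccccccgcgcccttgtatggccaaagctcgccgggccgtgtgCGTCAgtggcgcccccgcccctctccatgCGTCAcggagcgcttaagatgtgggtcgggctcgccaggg
Dusp1, chr17:26508473-26508722, strand -: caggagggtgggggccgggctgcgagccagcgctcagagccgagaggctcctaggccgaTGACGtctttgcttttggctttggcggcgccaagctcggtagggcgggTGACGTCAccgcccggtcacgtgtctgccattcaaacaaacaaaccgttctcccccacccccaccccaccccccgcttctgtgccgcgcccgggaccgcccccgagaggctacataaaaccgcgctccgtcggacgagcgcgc
Fosb, chr7:19310046-19310295, strand -: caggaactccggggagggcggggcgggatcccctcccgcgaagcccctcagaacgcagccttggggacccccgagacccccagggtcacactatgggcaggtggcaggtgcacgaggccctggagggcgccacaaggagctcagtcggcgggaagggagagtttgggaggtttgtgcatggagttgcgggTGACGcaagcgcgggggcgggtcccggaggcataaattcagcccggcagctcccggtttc
Npas4, chr19:4989972-4990221, strand -: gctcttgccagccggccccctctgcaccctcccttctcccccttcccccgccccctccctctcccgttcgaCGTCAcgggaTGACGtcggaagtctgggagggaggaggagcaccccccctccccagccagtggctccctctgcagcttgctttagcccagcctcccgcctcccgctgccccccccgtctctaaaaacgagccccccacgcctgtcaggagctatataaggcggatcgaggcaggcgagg
The 7 genes had 11 windows, 5 of them of Egr2. The core TGACG was found in 9 of the 11, at least 1 window of each gene, and in 20.8% of all 32851 windows of that length. The full element TGACGTCA was found in Dusp1 alone among the 7, and in 1.79% of all windows. A CArG box match was found in 4 of the 11 windows, all of Egr2, and in 1.63% of all windows. The Egr2 windows that start at 67537619, 67537620 and 67537680 on chromosome 10 overlap. They share the same CArG box and the same core matches, so the counts of windows repeat these sites. Nr4a1 held the most core matches, 4, at 233, 213, 69 and 40 bases before the start. Fos held 2, at 129 and 66 bases before the start, Npas4 2 and Fosb 1. The windows of these genes were also rich in G and C, with 56.0% to 72.3% of bases against a mean of 53.8% over all windows.

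Depth was 15855751 to 45265719 reads assigned to genes per library. Levels are given in CPM, read counts brought to a common library size that was scaled with TMM factors, and limits set by a count of 0 cover counting error only, while the 95% intervals of fold changes include the spread between mice. Library 411, labelled Het DMSO cerebellum, stood apart: its 10 granule cell markers summed to 159 CPM against 3849 to 8376 CPM in the other 11 libraries, and its 8 Purkinje cell markers to 520 CPM against 3028 to 7379 CPM. None of these markers was at 0 in it. All 7 midbrain markers were at 1 CPM or more there and summed to 101 CPM, against 6.12 to 31.0 CPM elsewhere, where the highest sum was that of library 410. Library 409, also Het DMSO, had 0.0795% of its gene reads from mitochondrial genes, against 1.85% to 2.81% in the other 11. Xist was at 1393 and 1465 CPM in libraries 425 and 426, both WT DMSO, and at 0.289 CPM or less in the other 10; the labels used here do not state sex. Results are therefore given with and without 409 and 411, and with and without 425 and 426 where that matters. Atxn1 lay between 137 and 186 CPM in every library, and a gene count does not read the length of the expanded tract, so it does not check the genotype. In bulk tissue, fewer cells of a type and less RNA per cell cannot be told apart.

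Compared per kilobase of exon, which allows genes to be ranked against each other, the most abundant messages over the 12 libraries were Dusp1 at 11.2 ± 3.45 CPM per kb (SD, n = 12), Egr1 at 9.69 ± 3.17 and Fos at 8.72 ± 3.44. Nr4a1 followed at 8.12, Ier2 at 6.67, Arc at 5.83 and Junb at 4.36 CPM per kb. These first 7 genes formed a continuous series, in which each gene differed from its neighbour by less than the spread over libraries. A gap then separated Junb from Npas4 at 0.925 CPM per kb, with no overlap of their ranges. Fosb, at 0.320 CPM per kb, and Egr2, at 0.0288 CPM per kb, were the scarcest.

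**Figure D1:**
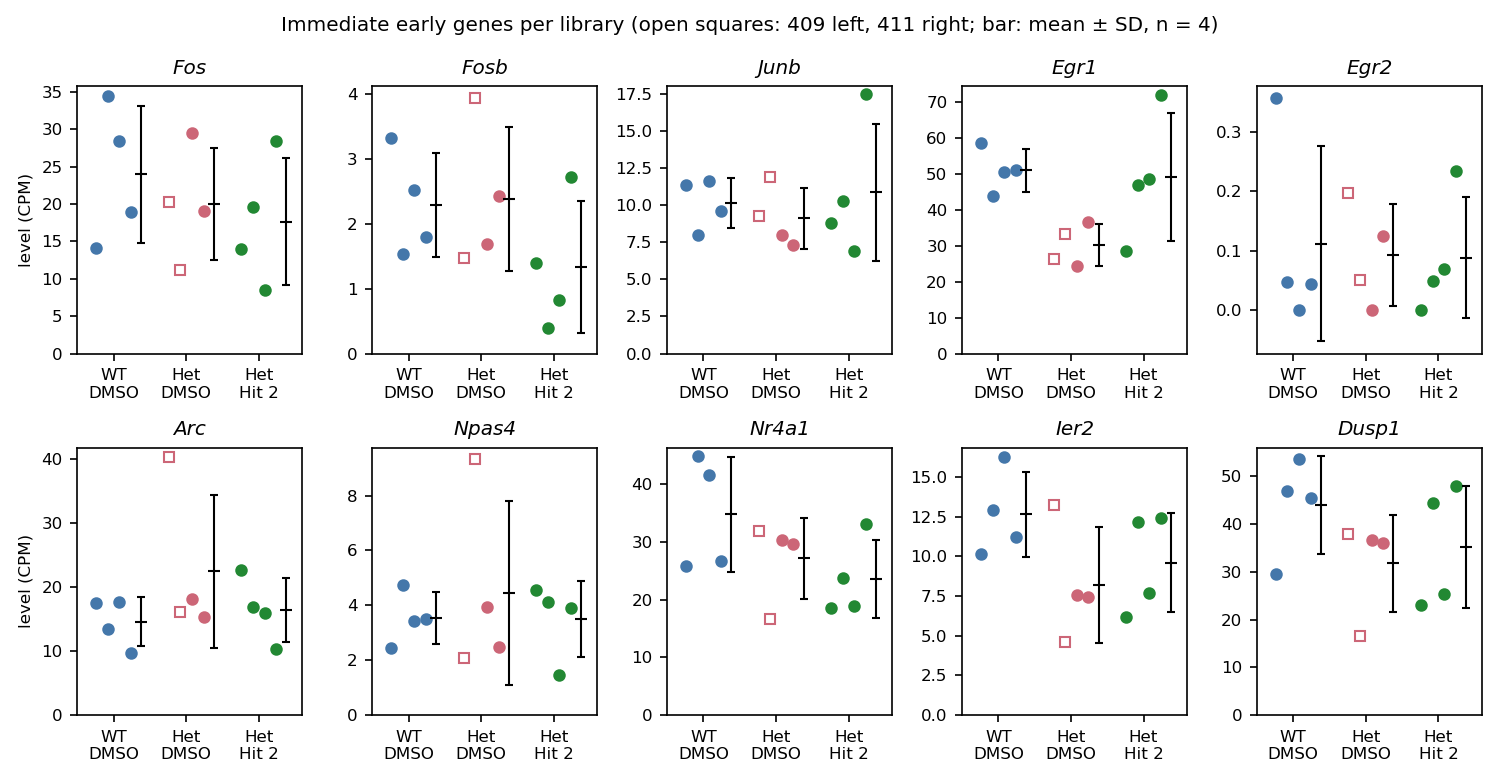
Level of each of the 10 immediate early genes in every library, in CPM on a linear axis with its own scale per gene. Each point is 1 mouse, open squares are libraries 409 (left) and 411 (right), and the bar beside each group is the mean ± SD (n = 4). The Het DMSO points of Egr1 lie below all WT DMSO points, and the groups overlap for the other 9 genes.

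The 3 comparisons are called here the genotype comparison (Het DMSO against WT DMSO), the treatment comparison (Het Hit 2 against Het DMSO) and the combined comparison (Het Hit 2 against WT DMSO). No gene of the 9 tested passed the threshold in any of them (edgeR quasi-likelihood test, Benjamini-Hochberg adjusted p of 0.05 over all 19378 genes). The background was as sparse: 0.00516% of genes were called in the genotype comparison, 0% in the treatment comparison and 0.00516% in the combined comparison. At an unadjusted p under 0.05, the counts among the 9 genes were 1, 1 and 0, against 7.11%, 1.55% and 1.71% of all genes. DESeq2 also called 0, 0 and 0 of them (0.222%, 0% and 0.124% of the genes it tested) and gave 1, 1 and 1 at an unadjusted p under 0.05 (9.29%, 2.29% and 1.95%). With limma and library quality weights the called counts were 0, 0 and 0 (0.506%, 0% and 1.14% of all genes), with 2, 2 and 2 at an unadjusted p under 0.05 (9.4%, 5.04% and 12.9%). The 2 groups did not overlap for 1, 0 and 0 of the 9 genes, against 4.39%, 1.03% and 6.32% of all genes. These counts do not show that the groups are alike, since the intervals given with each gene are wide.

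Egr1, a zinc finger transcription factor induced through serum response factor and used as a marker of synaptic plasticity, had the largest difference relative to its error. Its levels were 58.5, 43.9, 50.6 and 51.2 CPM in the WT DMSO mice 413, 425, 426 and 431. They were 26.5, 33.3, 24.4 and 36.7 CPM in the Het DMSO mice 409, 411, 420 and 429. They were 28.7, 46.9, 48.7 and 72.1 CPM in the Het Hit 2 mice 410, 421, 422 and 430. All 4 Het DMSO mice lay below all 4 WT DMSO mice, while among the Het Hit 2 mice animal 410 lay within the Het DMSO range and the other 3 lay above it. Non-overlap in this direction was found in 2.45% of all genes tested, and Egr1 was the 1 gene of the 9 that showed it. The group means were 51.1 ± 5.98, 30.2 ± 5.75 and 49.1 ± 17.8 CPM (SD, n = 4 each).

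In the genotype comparison, the log2 fold change of Egr1 was -0.76 (SE 0.24, 95% interval -1.27 to -0.24), with an unadjusted p of 0.00771 and an adjusted p of 0.616 in edgeR. The 8 Purkinje cell markers, none of them at 0 in any library, separated the same groups: they summed to 7082 to 7379 CPM in WT DMSO, 520 to 6507 CPM in Het DMSO and 3028 to 6086 CPM in Het Hit 2. The 6 astroglia markers, also never at 0, summed to 2295 to 2496, 1752 to 2290 and 2005 to 2124 CPM. In both lists the Het Hit 2 sums lay below all WT DMSO sums as well, and their part in the Egr1 values was not tested. The exact two-sided permutation test over the 70 assignments gave p = 0.0286, the smallest it can give. Leaving out each library in turn kept the log2 fold change of Egr1 between -0.86 and -0.67, and without libraries 409 and 411 it was -0.74. In the treatment comparison, the log2 fold change of Egr1 was 0.70 (SE 0.24, 95% interval 0.18 to 1.22), with an unadjusted p of 0.0119, an adjusted p of 0.898 and an exact permutation p of 0.0857. It rested in part on animal 430, the highest of all: without it the value was 0.44 (unadjusted edgeR p 0.0547), and without animal 410 it was 0.88. Both comparisons use the same 4 Het DMSO libraries, so that their opposite signs are not independent. In the combined comparison, Egr1 differed by -0.056 on the log2 scale (95% interval -0.57 to 0.46). Animal 410, the lowest of the Het Hit 2 mice, also had the lowest sum of granule cell markers apart from 411, at 3849 CPM. Animal 430, the highest in Egr1, had the next lowest sum, at 4254 CPM. The part of cell makeup in the Egr1 values was not tested.

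Egr2, a relative of Egr1 best known for its role in Schwann cells and hindbrain patterning, was barely detected, with 0 to 10 reads per library. It had no read in animals 426, 420 and 410, which allows levels of up to 0.0785, 0.187 and 0.174 CPM there. The highest level was 0.357 CPM, in animal 413. No fold change is given at this depth.

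**Figure D2:**
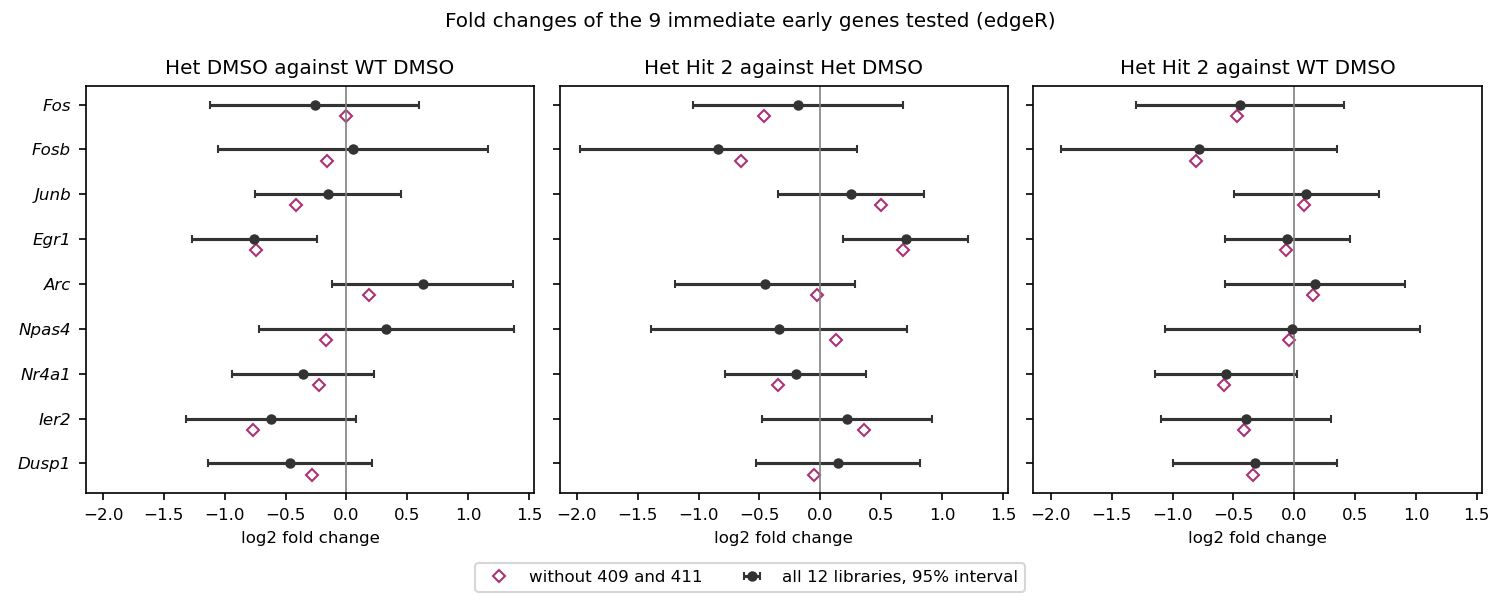
Log2 fold change of the 9 tested genes in the 3 comparisons (edgeR). Filled points are the fit to all 12 libraries with 95% intervals, and open diamonds the fit without libraries 409 and 411; the intervals of Egr1 lie off 0 in the first 2 panels, and all others span 0.

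Fos, Fosb and Junb encode subunits of the dimeric transcription factor AP-1. Fos was at 14.1, 34.5, 28.4 and 18.9 CPM in the WT DMSO mice 413, 425, 426 and 431. In the Het DMSO mice 409, 411, 420 and 429 it was at 20.3, 11.2, 29.4 and 19.1 CPM. In the Het Hit 2 mice 410, 421, 422 and 430 it was at 14.0, 19.6, 8.48 and 28.4 CPM. Each group thus held mice with at least 28.4 CPM and mice with 14.1 CPM or less, and the groups overlapped almost completely. On the log2 scale, the fold change of Fos was -0.26 in the genotype comparison (95% interval -1.12 to 0.59), -0.18 in the treatment comparison (-1.04 to 0.68) and -0.45 in the combined comparison (-1.30 to 0.41). The first and last took the other sign without libraries 425 and 426, at 0.28 and 0.093. Without 409 and 411, the genotype value of Fos was -0.0031, and leaving out each library gave -0.51 (without 420) to -0.034 (without 425), with -0.054 without 411.

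Fosb, which forms AP-1 dimers in the same way, was scarce, with 8 to 96 reads per library. It was at 3.32, 1.53, 2.51 and 1.79 CPM in WT DMSO, in the order of animals used above, and at 1.48, 3.94, 1.68 and 2.42 CPM in Het DMSO. In Het Hit 2 it was at 1.39, 0.395, 0.828 and 2.72 CPM. Animals 421, 422 and 410 were the 3 lowest of the 12, and animal 430 of the same group was the third highest, so that the groups overlapped. The log2 fold change of Fosb was -0.84 in the treatment comparison (95% interval -1.98 to 0.30) and -0.78 in the combined comparison (-1.92 to 0.35), with exact permutation p of 0.171 and 0.143. Single animals moved these values: in the treatment comparison Fosb was -1.46 without 430 (unadjusted edgeR p 0.0115) and -0.52 without 411, and in the combined comparison -1.41 without 430 (0.0135), -0.49 without 421 and -0.55 without 413. Limma with quality weights gave -1.41 and -1.42, with adjusted p of 0.981 and 0.170. Junb ranged from 6.90 CPM in animal 422 to 17.5 CPM in animal 430, both Het Hit 2, and the other 10 animals lay between 7.30 and 11.9 CPM. Its group means were 10.1 ± 1.70, 9.11 ± 2.04 and 10.9 ± 4.61 CPM (SD, n = 4 each) in WT DMSO, Het DMSO and Het Hit 2.

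Npas4 encodes a transcription factor that neurons induce in response to calcium entry and that shapes inhibitory synapses. It was at 2.43, 4.74, 3.43 and 3.49 CPM in WT DMSO, at 2.07, 9.34, 3.92 and 2.46 CPM in Het DMSO and at 4.57, 4.10, 1.47 and 3.89 CPM in Het Hit 2. Library 411 was the highest, above the sum of the other 3 libraries of its group. For Npas4, the log2 fold change in the genotype comparison was 0.33 (95% interval -0.72 to 1.37) with that library and -0.17 without 409 and 411. Fosb was likewise highest in 411. Library 410, with the next lowest granule and Purkinje cell sums, had Npas4 at 4.57 CPM and Fosb at 1.39 CPM. The part of cell makeup in the values of both genes was not tested.

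Arc encodes an effector of synaptic plasticity that acts at dendrites and drives the removal of AMPA receptors from synapses. It was at 17.6, 13.4, 17.7 and 9.71 CPM in WT DMSO, at 40.3, 16.1, 18.1 and 15.4 CPM in Het DMSO and at 22.6, 16.8, 15.9 and 10.3 CPM in Het Hit 2. Animal 409 stood above all others, and the remaining 11 lay between 9.71 and 22.6 CPM. For Arc, the log2 fold change in the genotype comparison was 0.63 (95% interval -0.12 to 1.37) and was 0.18 without libraries 409 and 411 and 0.79 without 411 alone (unadjusted edgeR p 0.0475). In the treatment comparison it was -0.46 with all libraries and -0.031 without those 2. Animal 409 is also the library with the low mitochondrial share, and the part of that in the Arc values was not tested.

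Nr4a1 encodes an orphan nuclear receptor. It was at 25.8, 44.9, 41.6 and 26.6 CPM in WT DMSO, at 31.9, 16.7, 30.4 and 29.6 CPM in Het DMSO and at 18.5, 23.7, 19.0 and 33.1 CPM in Het Hit 2. The 2 highest mice were 425 and 426, those with high Xist, and 411 was the lowest. The log2 fold change of Nr4a1 in the combined comparison was -0.56 (SE 0.27, 95% interval -1.14 to 0.021), with an unadjusted p of 0.0575 and an adjusted p of 1.00 in edgeR. It was -0.15 without libraries 425 and 426 and -0.78 without 430 (unadjusted p 0.0171). In the genotype comparison, the value of -0.36 became 0.050 without libraries 425 and 426 and -0.17 without 411 alone.

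Ier2 encodes a small nuclear protein of the early growth response. It was at 10.1, 12.9, 16.3 and 11.2 CPM in WT DMSO, at 13.3, 4.59, 7.53 and 7.43 CPM in Het DMSO and at 6.19, 12.2, 7.68 and 12.4 CPM in Het Hit 2. Among Het DMSO mice 3 lay below all WT DMSO mice and 409 lay among them. For Ier2, the log2 fold change in the genotype comparison was -0.62 (95% interval -1.32 to 0.079, unadjusted p 0.0774, adjusted p 0.616 in edgeR). Without library 409 alone it was -0.96 (unadjusted p 0.00761), without 411 alone -0.40 (0.218), without 409 and 411 it was -0.77, and without 425 and 426 it was -0.38.

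Dusp1 encodes a phosphatase that switches MAP kinases off and so closes a feedback loop on the same pathway. It was at 29.5, 47.0, 53.6 and 45.5 CPM in WT DMSO, at 37.8, 16.5, 36.6 and 36.0 CPM in Het DMSO and at 23.0, 44.5, 25.3 and 48.0 CPM in Het Hit 2. The Het Hit 2 mice formed a low and a high pair, 410 and 422 against 421 and 430, and 411 was the lowest of all. The log2 fold change of Dusp1 was -0.47 in the genotype comparison (95% interval -1.14 to 0.21), -0.29 without libraries 409 and 411, -0.24 without 411 alone and -0.24 without 425 and 426. In the treatment comparison it was 0.15 (-0.53 to 0.82).

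As a set, the median of the 9 log2 fold changes was -0.26 in the genotype comparison, -0.18 in the treatment comparison and -0.32 in the combined comparison. Leaving out each library gave -0.45 to -0.17, -0.32 to 0.059 and -0.52 to -0.18, so that the treatment median changed sign, to 0.059 without 420 and 0.049 without 422. Without 409 and 411 the medians were -0.23, -0.031 and -0.34, and without 425 and 426 they were -0.11, -0.18 and -0.094. With all libraries, the medians over all 19378 genes were 0.052, -0.043 and 0.021. Fold changes were below 0 for 6, 5 and 7 of the 9 genes, against 44.2%, 55.7% and 44.3% of all genes. These genes were not independent of each other, as their values over the mice show.

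Fos, Nr4a1, Ier2 and Dusp1 varied together from mouse to mouse. These 4 were picked out after the correlations had been seen. Over the 12 libraries, the 6 pairs among them had Pearson's r of log2 CPM from 0.63 to 0.89. Ier2 and Dusp1 had r = 0.89 and Spearman's rho = 0.86, and Fos and Nr4a1 had r = 0.89 and rho = 0.89. With p-values from 100000 permutations adjusted over all 36 pairs of the 9 genes, 5 of these 6 pairs passed 0.05, with adjusted p between 0.00270 and 0.0189. Fos and Ier2, at r = 0.63 and rho = 0.62, did not (adjusted permutation p of 0.146). With group means removed, the 6 pairs kept r from 0.65 to 0.89, and without libraries 409 and 411 from 0.56 to 0.88. Without the 2 libraries farthest from the median of one gene of the pair, they kept r from 0.64 to 0.86.

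The other 30 pairs ranged from -0.67 to 0.53, and none passed after adjustment. Egr1 had r of 0.05, 0.21, 0.39 and 0.47 with Fos, Nr4a1, Dusp1 and Ier2, all below the r of any pair among those 4 over the same 12 libraries. Without 409 and 411, Egr1 and Ier2 had r = 0.67, above the 0.56 of Fos and Ier2 in those 10 libraries, and without the 2 farthest libraries they had 0.71. Egr1 and Arc had the most negative value, r = -0.67 and rho = -0.60 (adjusted permutation p of 0.0745), and r = -0.61 without libraries 409 and 411. Fos and Npas4 had r = 0.19 over all libraries and 0.73 without 409 and 411.

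**Figure D3:**
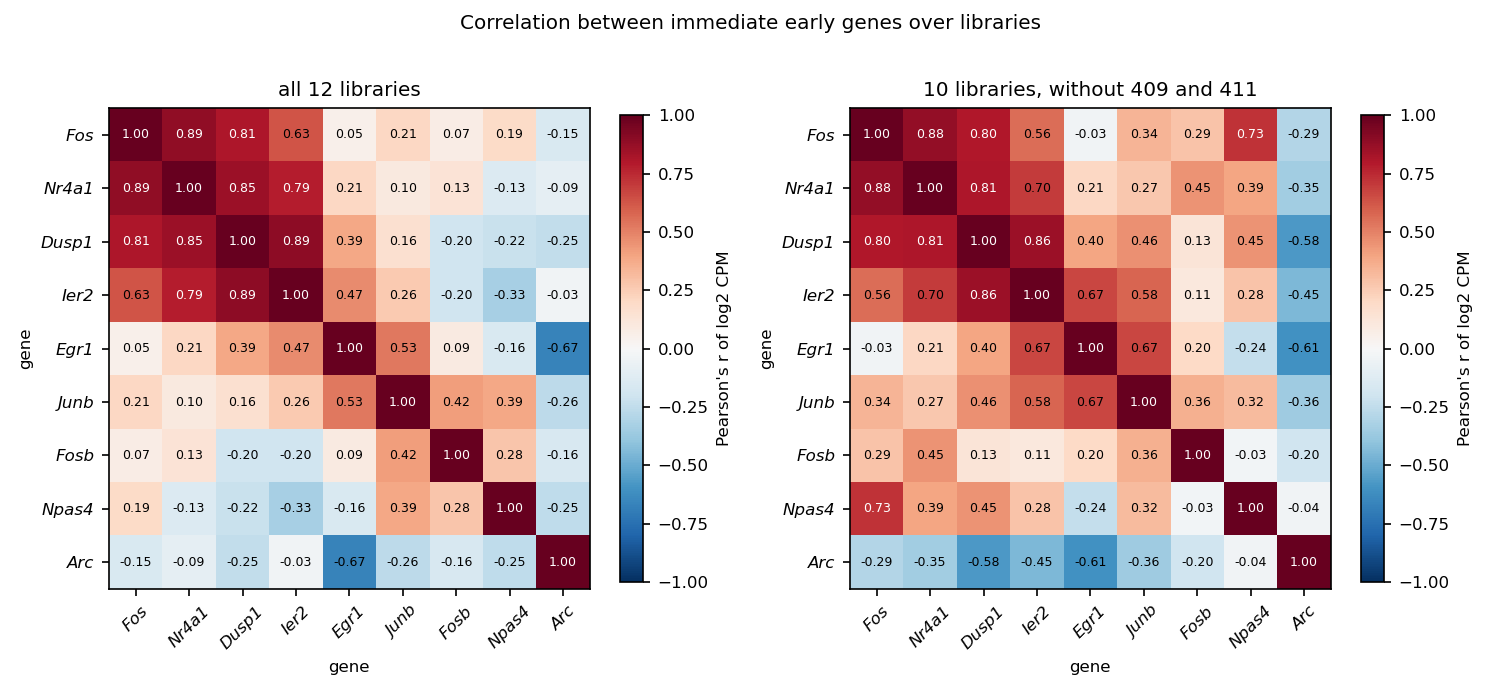
Pearson's r of log2 CPM between the 9 tested genes, over all 12 libraries (left) and over the 10 libraries without 409 and 411 (right), on a colour scale from -1 to 1. Fos, Nr4a1, Dusp1 and Ier2 form a block of high values at the upper left of the left panel; in the right panel 4 other pairs exceed the lowest pair of the block (0.56), namely Fos and Npas4 (0.73), Egr1 and Ier2 (0.67), Junb and Egr1 (0.67) and Junb and Ier2 (0.58).

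The 4 genes were all above their median over the 12 libraries in animals 425, 426, 409 and 430, at least 1 in every group. They were all at or below it in animals 413, 411, 410 and 422, again at least 1 in every group. Mean deviations of the 4 from their medians ran from -0.98 on the log2 scale in 411, -0.69 in 422 and -0.63 in 410 to 0.53 in 425 and 0.56 in 426. Libraries 425 and 426 are those with high Xist, and the correlations were not repeated without both. Libraries 411 and 410 also had the 2 highest sums of the 6 oligodendrocyte markers, 6417 and 5370 CPM against 1249 to 3374 CPM in the other 10. Their sums of the 6 microglia markers, 178 and 129 CPM against 63.9 to 94.1 CPM, were the 2 highest as well, and their granule and Purkinje cell sums the 2 lowest. Library 422 did not share this, with 1274, 66.2 and 6417 CPM for oligodendrocyte, microglia and granule cell markers. The part of cell makeup in the shared variation was not tested. Animals 410 and 422 of the Het Hit 2 group differed from animal 430 of the same group, at 0.34, by more than the group means differed. Averaged over all 9 genes, the highest libraries were 426 at 0.36 and 430 at 0.33, and the lowest was 422 at -0.61.

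**Figure D4:**
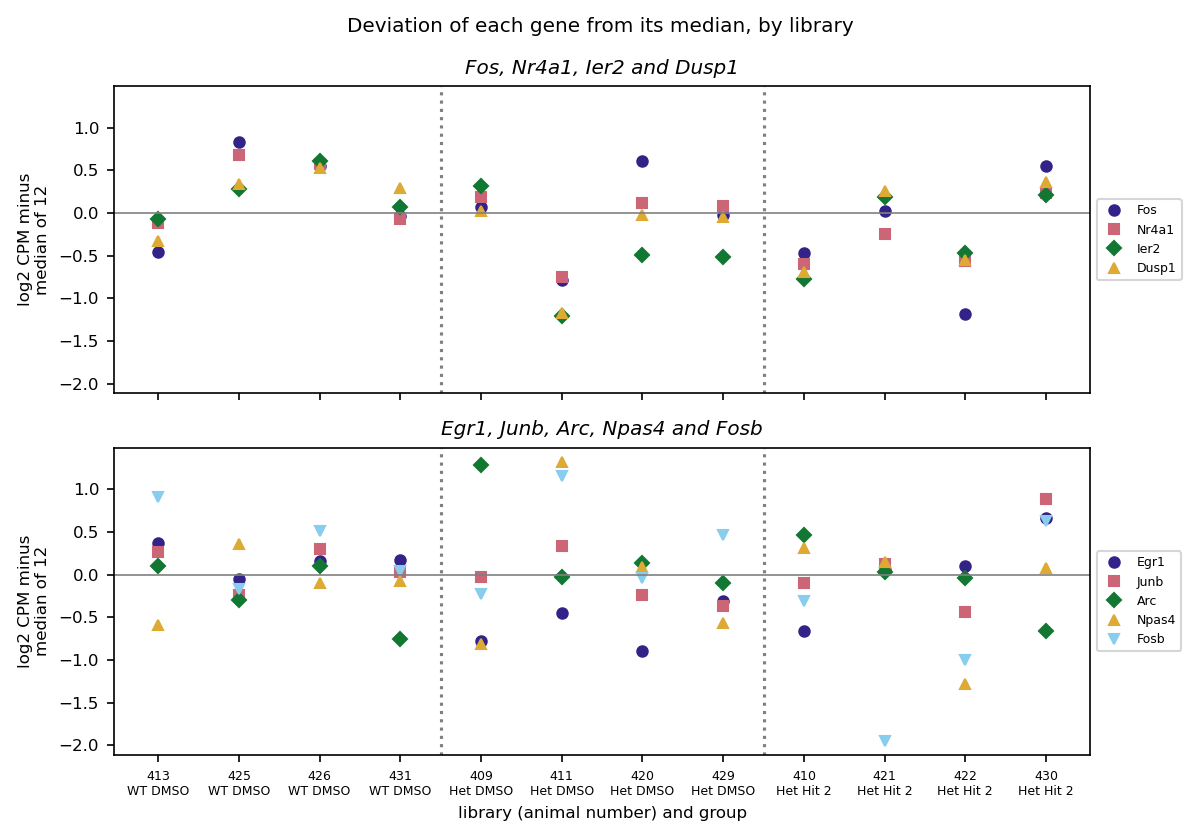
Log2 CPM of each gene minus its median over the 12 libraries, for each mouse, with dotted lines between the groups. In the upper panel the points of Fos, Nr4a1, Ier2 and Dusp1 lie close together in most mice and low in 411, 410 and 422; in the lower panel those of Egr1, Junb, Arc, Npas4 and Fosb scatter.

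Within groups, the median SD of the 9 genes was 0.51 on the log2 scale, against 0.37 over all genes tested. Without libraries 409 and 411, it was 0.41 against 0.20. In those 10 libraries Fosb had an SD of 0.79, Fos 0.64 and Npas4 0.57, and every one of the 9 genes exceeded the SD of at least 76.4% of all genes. Over all 12 libraries the 9 genes lay less far out: Egr1 had the smallest SD, 0.37, equal to the median of all genes and above 49.8% of them, and Junb and Nr4a1 exceeded 54.5% and 57.1%.

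The 3′ UTRs of these genes were examined for the pentamer ATTTA, the core of AU-rich decay elements, on the sense strand of 1 transcript per gene (GENCODE M21, GRCm38). Of the 10 genes, 8 held a copy, against 66.0% of 14369 tested genes with a 3′ UTR, and the median density was 2.07 copies per kb against 1.20. Dusp1 at 5.80, Nr4a1 at 5.52, Fos at 4.91 and Junb at 4.12 copies per kb were the densest. Arc and Ier2 held none.

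Genes outside the set were ranked by the correlation of their log2 CPM with the mean deviation of the 9 genes, over 16632 genes with a mean of at least 1 CPM. Over all 12 libraries the first 5 were Epha2 at r = 0.83, Ctsz at 0.82, Espl1 at 0.81, Pkig at 0.78 and Cyp11a1 at 0.78. Over the 10 libraries without 409 and 411 they were Plekhf1 at 0.91, Endou at 0.91, Espl1 at 0.90, Parvb at 0.88 and Gm26843 at 0.88. Espl1, which encodes the protease separase, was the 1 gene on both lists, at 0.966 to 2.58 CPM. These values are descriptions from the top of a long ranking.

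Further activity genes were taken from 4 lists, and none of their tested members passed the edgeR threshold in any comparison. Counts at an unadjusted p under 0.05 are to be read against the 7.11%, 1.55% and 1.71% of all genes at that level in the genotype, treatment and combined comparisons. Of 13 other early transcription factors tested (14 listed), 3 had an unadjusted p under 0.05 in the combined comparison, all lower, with a list median of -0.12 on the log2 scale. In the treatment comparison 1 was lower, and none had such a p in the genotype comparison. Nr4a2, a nuclear receptor close to Nr4a1, was at 17.7 to 38.3 CPM in WT DMSO, 18.1 to 29.0 CPM in Het DMSO and 10.2 to 20.0 CPM in Het Hit 2. Its log2 fold change in the combined comparison was -0.87 (SE 0.27, adjusted p of 1.00 in edgeR). The highest Nr4a2 values, 38.3 and 34.9 CPM, were those of 425 and 426, the libraries with high Xist. No fold change without them is given for this gene. Klf4 and Klf2, zinc finger factors, had -0.69 and -0.59 in the same comparison. The Klf2 values did not overlap between WT DMSO and Het Hit 2, as in 6.32% of all genes tested. Those of Atf3 on the same list, named after its values were seen, did not overlap either. Limma with quality weights called Klf4, at -0.80 and an adjusted p of 0.0329.

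Of 23 other rapid response genes, 2 had an unadjusted p under 0.05 and were higher in the genotype comparison, and the list median there was -0.0043. In the treatment comparison 1 was lower, and in the combined comparison 1 was higher and 2 were lower. Dusp4, a MAP kinase phosphatase, was at 29.1 CPM in animal 409 and at 5.15 to 11.6 CPM in the other 11. Its log2 fold change of 1.01 in the genotype comparison was 0.52 without libraries 409 and 411. Ptgs2, the inducible cyclooxygenase, and Sik1, a salt-inducible kinase, had 1.25 and -0.52 in the combined comparison. Dusp5, a phosphatase of ERK, is named after its values were seen. It was at 69.8 to 109 CPM in WT DMSO and at 36.1 to 52.8 CPM in Het Hit 2, with no overlap, as in 6.32% of all genes. In the Het DMSO mice 409, 411, 420 and 429 it was at 94.0, 1.87, 55.3 and 49.3 CPM. The log2 fold change of Dusp5 was -0.90 in the genotype comparison and -0.18 in the treatment comparison. Without 409 and 411 these values were -0.85 and -0.24. Its log2 fold change in the combined comparison was -1.08, with an adjusted p of 1.00 in edgeR over all libraries, and -1.09 with an adjusted p of 0.0192 without 409 and 411.

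Of 12 later activity-regulated genes, none had an unadjusted p under 0.05 in any comparison. The smallest p belonged to Cdkn1a, a cell cycle inhibitor, to Vgf, a secreted neuropeptide precursor, and to Nptx2, a synaptic pentraxin. Vgf was at 137 CPM and Nptx2 at 14.8 CPM in library 411, and both log2 fold changes in the genotype comparison, 1.45 and 1.70, were below 0 without 409 and 411, at -0.30 and -0.47. Of 20 upstream regulators, 1 was higher and 1 lower at an unadjusted p under 0.05 in the genotype comparison, 1 was higher in the treatment comparison and none in the combined one. Their smallest p belonged to Mef2c, Mrtfa and Mef2a. Mef2c, a neuronal transcription factor, was at 35.1 to 43.1 CPM in Het Hit 2 against 16.9 to 31.1 CPM in Het DMSO, a log2 fold change of 0.70 (SE 0.20, adjusted p of 0.898 in edgeR), and 0.35 without 409 and 411. Mrtfa, a coactivator of serum response factor, had 0.45 in the genotype comparison and 0.19 without those 2 libraries. Mef2a had -0.51 and -0.12.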

How the data were processed

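Ribosomal RNA was depleted from 500 ng of cerebellar RNA per mouse and directional libraries, amplified for 13 cycles, were read as pairs of 100 bases, per the labels' protocols. Each deposited table holds whole, unnormalized read counts for 1 library, in the layout of the STAR aligner; the submitters' processing notes name STAR 2.7.10a, FastQC 0.11.9 and the build GRCm39 (mm39). The opposite-strand counts were used, since 5.21% to 6.47% of gene reads lay on the other strand. Reads not assigned to a gene (44.7% to 54.6% of a library), multimapping (4.08% to 7.01%), unmapped (3.70% to 6.53%) and ambiguous reads (0.761% to 1.33%) stayed out. Of 55401 identifiers, 55141 matched a symbol in GENCODE M21, which is on another build, GRCm38, as are the sequences; the counts themselves use no coordinates from it.

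Groups and animal numbers come from the labels. edgeR 4.0.16 in R 4.3.3 fitted all 12 libraries in 1 quasi-likelihood model with 1 coefficient per group, after filterByExpr and TMM scaling; tests were two-sided, with Benjamini-Hochberg adjustment over 19378 genes and a threshold of 0.05. Standard errors come from the F statistic and 95% intervals from the t quantile of its degrees of freedom. Sample-sheet numbers in the deposited names recur between libraries, so more than 1 sequencing run is possible; the assignment is not given in the sources used here, no run term was fitted, and the part of runs in the comparisons was not tested. Log2 CPM used a prior count of 2. No 2 libraries were near-identical. Alternatives were DESeq2 1.42.0, limma 3.58.1 with library quality weights, RLE factors, no low-count filter, unstranded counts, only the 2 groups compared, and leaving out 409 and 411, 425 and 426 or each library. The tests were also run on simulated counts, in which the planted changes were larger than any fold change given here. That run does not show how well differences of the size given here are found. Named beside the 10 genes are up to 3 per list with the smallest p, and the 5 most correlated with the set; other names were chosen after their values were seen, as stated there. The genes and lists were chosen with earlier results of these data known.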

Additional observations from a re-analysis of the deposited data

Results flagged for a closer look

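Within each group of 4 mice, 27 sets of values (9 genes in 3 groups) were checked for 1 mouse far from the other 3, by the gap to its nearest neighbour over the range of the group on the log2 CPM scale, against Dixon's 95% critical value. Chance flags about 1 in 20 such sets, or 1.35 of 27, and 3 were found. Nr4a1 and Dusp1 were both lowest in library 411 of the Het DMSO group, with ratios of 0.885 and 0.941, at 16.7 and 16.5 CPM against at least 29.6 and 36.0 CPM in the other 3 mice of that group. Npas4 was lowest in library 422 of the Het Hit 2 group, with a ratio of 0.856, at 1.47 CPM against at least 3.89 CPM in the other 3; taken on linear CPM, the Npas4 ratio is 0.781 and below the critical value, while those of Nr4a1 and Dusp1, 0.850 and 0.916, stay above it. On linear CPM 1 further set passes, Arc in Het DMSO, where animal 409 is the highest, with a ratio of 0.889. Library 411 is the one with few granule and Purkinje cell markers, and the part of its cell makeup in these 2 values was not tested.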

How the results depend on the processing

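None of the 27 fold changes of the 9 genes passed the threshold under any of the 20 alternatives, and of 540 values 511 kept their sign. The 29 that did not belong to 14 fold changes, none of which was called. For Het DMSO against WT DMSO (log2 scale), without 425 and 426 Fos was 0.28, Nr4a1 0.050 and Fosb -0.11; without 409 and 411 Fosb was -0.16 and Npas4 -0.17; with limma Fosb was -0.0082 and Npas4 -0.23; leaving out each library gave -0.29 to 0.28 for Fosb and -0.33 to 0.56 for Npas4. For Het Hit 2 against Het DMSO, without 409 and 411 Npas4 was 0.13 and Dusp1 -0.049, and leaving out each library gave -0.53 to 0.059 for Fos, -0.090 to 0.42 for Junb, -0.58 to 0.29 for Npas4, -0.014 to 0.56 for Ier2 and -0.094 to 0.29 for Dusp1. For Het Hit 2 against WT DMSO, without 425 and 426 Fos was 0.093 and Npas4 0.24, and leaving out each library gave -0.24 to 0.27 for Junb, -0.31 to 0.12 for Egr1, -0.029 to 0.32 for Arc and -0.18 to 0.25 for Npas4. Over all genes, the 1 gene called for Het DMSO against WT DMSO became 43 with DESeq2, 98 with limma, 18 without 409 and 411, 0 without 425 and 426, 0 with only the 2 groups, and 0 to 9 leaving out each library (0 without 429, 4 without 409, 9 without 411). The 1 called for Het Hit 2 against WT DMSO became 24 with DESeq2, 221 with limma, 4 without the filter, 2 with unstranded counts, 54 with only the 2 groups, 90 without 409 and 411, 0 without 425 and 426, and 0 to 14 leaving out each library (14 without 411, 5 without 409, 2 without 429, 1 without 420, and 0 without any 1 of the other 8). Het Hit 2 against Het DMSO stayed at 0. Among the lists, Dusp5 was called with only the 2 groups compared, as it was without 409 and 411. The cause of these changes was not tested. No paired analysis was possible because the animal numbers do not recur between groups. With 4 mice a group, the standard errors of the 9 genes were 0.23 to 0.52 on the log2 scale, which sets the size of a difference that could be detected.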

Other observations

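Some activity genes outside the 10 had 1 library far from the rest; they are named after their values were seen. Nr4a3, an early nuclear receptor, was at 3.94 CPM in library 411 and at 13.6 to 37.3 CPM in the other 11. Cdkn1a was at 56.4 CPM in animal 430, a Het Hit 2 mouse, and at 8.23 to 24.3 CPM in the other 11. Jund, an AP-1 subunit, was at 265 CPM in animal 409 and at 97.7 to 126 CPM in the other 11. Creb1, which encodes the factor that binds cyclic AMP response elements, was at 31.7 CPM in animal 409 and 49.8 CPM in library 411, and at 59.2 to 90.8 CPM in the other 10.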
